A study of Homo sapiens with 4 samples.

Results

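The 9 genes described here are *NFE2L2*, which encodes the transcription factor NRF2, and *NQO1*, *HMOX1*, *GCLM*, *GCLC*, *TXN*, *TXNRD1*, *PRDX1* and *SRXN1*, all known targets of NRF2. They were chosen by name as NRF2 antioxidant genes, by a rule that uses no measured value though earlier results of these data were known, from 32991 genes listed in all 4 count tables. The cells were A375, an established human melanoma line with the *BRAF* V600E mutation, which keeps the MAPK pathway switched on. Untreated, drug-sensitive cells (S) were compared with cells made resistant to the BRAF inhibitor vemurafenib (RV), to vemurafenib with the MEK inhibitor cobimetinib (RVC), or to vemurafenib with the MEK inhibitor trametinib (RVT). The resistant cultures had grown for 10 to 14 days in drug concentrations below the IC50, and the drugs had been absent for the last 24 h. For each condition 10000 cells were loaded and 1 droplet library was sequenced, so each condition is 1 culture of 1 line, no test between conditions was possible, and every range given below covers counting error only.

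NRF2 is held at a low level by KEAP1, which brings it to the CUL3-RBX1 ubiquitin ligase for breakdown. Oxidants and electrophiles stop KEAP1 from doing so, and NRF2 then pairs with small MAF proteins and binds antioxidant response elements in the DNA near its target genes. The targets make glutathione, reduce thioredoxin and peroxides, and detoxify quinones and heme. Since NRF2 is controlled mainly through its breakdown, the mRNA level of *NFE2L2* is no measure of the activity of the protein.

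After filtering, 26579 cells were left, 6334 from S, 4177 from RV, 7623 from RVC and 8445 from RVT. A cell of the median held 8807.5 UMIs (unique molecular identifiers, which count transcript molecules once each) in S and 11553 in RV, but 3959 in RVC and 2871 in RVT. S and RV were counted with one gene annotation and RVC and RVT with another. Libraries shared between 38 and 149 cell barcodes, at most 1.61% of a library. The summed level of 8 melanocyte lineage markers was 374 CPM in S and 234 in RV, against 10.2 in RVC and 164 in RVT, with 1, 1, 4 and 2 of the 8 genes at 0. *MIA* and *SOX10* carried most of this sum in S, and in RVC *MIA* had 1.88 CPM and *SOX10* was at 0. *MITF* had 9.78 CPM in S and 20.2 in RV, against 8.13 in RVC and 41.3 in RVT, and *PMEL*, *MLANA*, *TYR* and *DCT* were at or near 0 in all 4 libraries. The immune, endothelial and epithelial marker lists, of 4 genes each, summed to at most 11.4 CPM in any library, with 2 to 3, 0 to 2 and 1 to 3 genes at 0.

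Levels are CPM, the UMIs of a gene per 1000000 UMIs of the library, with exact 95% Poisson intervals. A gene was compared if the mean of both libraries reached 10 CPM, and a ratio of at least 2-fold was counted. A gene that passes this filter only through the library in which it is high had to differ, which concerned *GCLM* in both comparisons with S and *GCLC* in RVT. The counts over the 9 genes are therefore descriptions.

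In RV over S, 5 of the 9 genes were compared. *NFE2L2* and *NQO1* were at least 2-fold lower, as were 1.28% of all 5796 genes compared, and none of the 5 was at least 2-fold higher, against 2.09% of all genes. In RVC over S, 6 genes were compared. *TXNRD1*, *GCLM* and *PRDX1* were at least 2-fold higher, against 23.1% of all 6189 genes, and none was at least 2-fold lower, against 23.4%. In RVT over S, 7 genes were compared. *TXNRD1*, *GCLM*, *GCLC* and *PRDX1* were at least 2-fold higher, against 30.8% of all 6638 genes, and none was lower by that much, against 23.2%. With TMM scaling 2 were higher and 1 lower, against 16.9% and 33.6% of all genes, and after centering on GC content 3 were higher and 2 lower, against 21.6% and 24.4%. In RVT over RVC, 8 genes were compared, *TXNRD1* and *GCLC* were at least 2-fold higher against 16.7% of all 6528 genes, and none was at least 2-fold lower, against 11.6%.

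The background thus set these comparisons apart. A 2-fold difference was rare between RV and S and common in each comparison with RVC or RVT. Genes richer in GC over their last 500 transcript bases also had lower ratios against S, with Spearman correlations across genes of -0.35 for RVC and -0.41 for RVT, whereas the correlation was 0.01 for RV. In RVT over RVC the correlation with this GC content was -0.17. The 9 genes lay between the percentiles 0.1 for *GCLM* and 64.8 for *HMOX1* of that GC content. A second value, centered on genes of similar GC content, is therefore given below for ratios of the 9 genes other than *SRXN1*. It is not given in the text for every ratio, nor for the wider lists. The condition, the annotation, the depth and this GC trend cannot be told apart in RVC or RVT against S. TMM scaling also shifted the background toward lower ratios, to 16.5% higher and 27.6% lower in RVC over S. In RVT over RVC it turned the background round, to 8.80% higher and 18.3% lower. The median log2 ratio of all genes was 0.03 in RV over S, 0.17 in RVC over S, 0.29 in RVT over S and 0.21 in RVT over RVC.

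**Figure D1:**
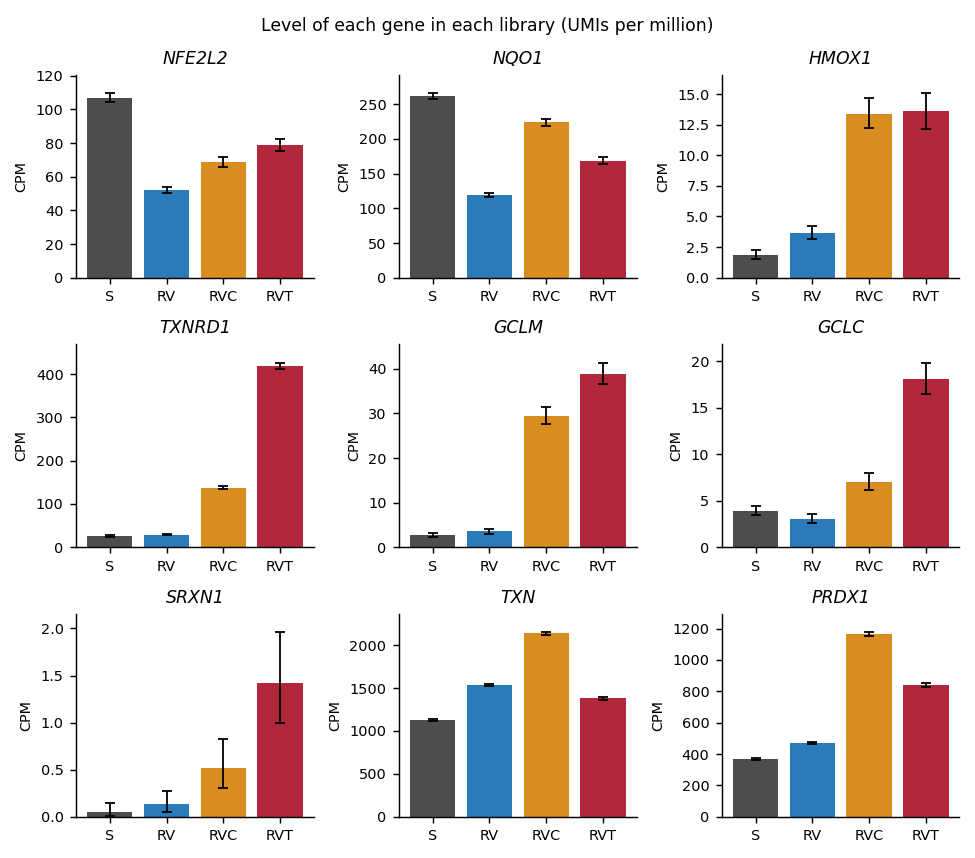
Level of each of the 9 genes in the libraries S, RV, RVC and RVT (vertical axis, CPM from 0, with its own scale for each gene), 1 bar per library and error bars for the exact 95% Poisson interval. By CPM, *NFE2L2* and *NQO1* are highest in S and lowest in RV, whereas *TXNRD1*, *GCLM*, *GCLC* and *SRXN1* are highest in RVT and *TXN* and *PRDX1* in RVC, which for *NFE2L2*, *GCLM* and *TXN* changes after centering on GC content.

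*NFE2L2* (ENSG00000116044, GRCh38 chr2:177227595-177392697, minus strand) was highest in the untreated cells. Its level was 107 CPM (104 to 109.7) in S and 52.0 (50.1 to 54.0) in RV, against 68.7 (65.9 to 71.6) in RVC and 78.8 (75.4 to 82.3) in RVT. All 3 resistant libraries were lower than S, by CPM RV most, and none of the intervals overlapped. The log2 ratio was -1.04 in RV over S (-1.11 to -0.98), which placed *NFE2L2* 67th from the lowest of the 5796 genes. It was -0.64 in RVC over S and -0.44 in RVT over S, and -1.18 and -1.37 after centering on GC content, so that a lower level in all 3 held under both. The order did not, since RV over S was -1.07 after centering and RVT was then lowest.

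*NQO1* (ENSG00000181019, chr16:69706996-69726951, minus strand) encodes a quinone reductase and is widely used as a readout of NRF2. It had 262 CPM (258 to 266) in S and 119 (116 to 122) in RV, against 224 (219 to 229) in RVC and 168 (163 to 174) in RVT. The order of the libraries differed from that of *NFE2L2*, with RVC next to S. The log2 ratio was -1.14 in RV over S (-1.19 to -1.10), -0.23 in RVC over S, -0.64 in RVT over S and -0.41 in RVT over RVC (-0.47 to -0.36). *NQO1* remained lower than S in each resistant library under every scaling tried, and in RVT it passed 2-fold under TMM scaling (log2 -1.16) and after centering on GC content (-1.12).

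*NQO1* was uneven among the untreated cells. Between S cells, *NQO1* was 110th of 5731 genes by its Fano factor (variance over mean of the UMIs per cell, after thinning each cell to 1500 UMIs), with 1.26 against a median of 1.01 for all genes, whereas *NFE2L2* was at 1.01. Of all genes with at least 50 CPM, those whose per-cell levels (log of CPM plus 1, not thinned) correlated most with *NQO1* in S were *NPM1* (r = 0.34), *SNRPB2* (0.31), *TIMP1* (0.28), *CD74* (0.26) and *HLA-DRA* (0.23). The lowest correlation was with the hair keratin gene *KRT81* (-0.34), followed by *C19orf33* (-0.30) and *SPANXB1* (-0.29). *KRT81* was also the lowest for *NFE2L2* in S (-0.20). The cells of 1 library share its depth and free RNA, and these genes were chosen from their values.

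The S cells were split by *KRT81*, which had also divided S in earlier results of these data. In the 3494 S cells with fewer than 3 *KRT81* UMIs, *NQO1* had 385 CPM (378 to 392), and in the 2840 cells with at least 3 it had 129 CPM (125 to 133), a 2.98-fold difference (2.87 to 3.098). For *NFE2L2* the values were 140.1 CPM (136 to 144) and 71.2 (68.1 to 74.4), a 1.97-fold difference (1.87 to 2.08). In RV the same split gave almost even levels, 122 CPM in 2327 cells and 115 in 1850 cells for *NQO1*, and 53.0 and 50.9 for *NFE2L2*. The median depth was 8466.5 UMIs in S cells with fewer than 3 *KRT81* UMIs and 9307 in the others. In RV these medians were 10934 and 12424, so 3 UMIs mark a lower *KRT81* level in RV than in S. The parts of S and RV were not matched for depth.

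Since *KRT81* was chosen from these same S cells, the difference within S restates that correlation, and the ratios by split that use it are descriptions. Among cells with at least 3 *KRT81* UMIs the log2 ratio of RV over S was -0.17 for *NQO1* and -0.48 for *NFE2L2*, and among the rest it was -1.66 and -1.40. Splitting at a single *KRT81* UMI gave -0.62 and -1.69 for *NQO1* in cells with and without one, and -0.77 and -1.37 for *NFE2L2*. None of the other genes with at least 10 CPM in S differed by over 1.13-fold between the S cells on either side of 3 UMIs, *TXNRD1* being 1.13-fold, *TXN* 0.894-fold and *PRDX1* 1.04-fold in cells with fewer over cells with more. *KRT81* was found in 1 RVC cell, so RVC could not be split by it. In RVT the 142 cells with at least 3 *KRT81* UMIs had more *NQO1* than the rest, 222 CPM (184 to 265) against 167 (162 to 172), the opposite order to S. *TXNRD1* (503 against 417 CPM), *TXN* (1743 against 1371) and *PRDX1* (1085 against 835) were higher there too. *NFE2L2*, *HMOX1* and *GCLC* were lower and *GCLM* and *SRXN1* higher, with intervals that hold no difference. Median depth was 3518.5 UMIs against 2854, below that of S, so 3 UMIs mark a higher *KRT81* level than in S. *KRT81* has close paralogs, and how the counting treated shared reads was not tested. S and RVC were also split by 1 UMI of the noncoding RNA *LINC01419*. In S cells with and without one, *NQO1* had 283 and 211 CPM and *NFE2L2* 113 and 92.5. There *TXN* had 1111 and 1176 and *PRDX1* 366 and 379. In RVC *NQO1* had 222 and 235.5 CPM and *NFE2L2* 71.1 and 54.9, with *TXN* at 2033 and 2745 and *PRDX1* at 1086 and 1630. Median depth in RVC was 4253 and 2786 UMIs.

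**Figure D2:**
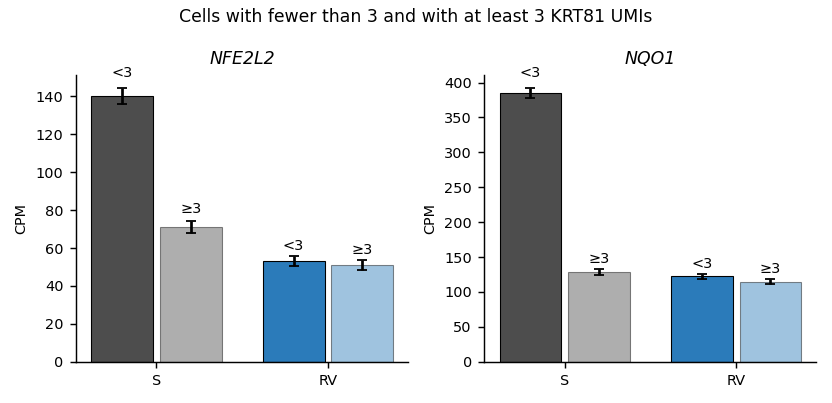
CPM of *NFE2L2* and *NQO1* (vertical axes from 0) in S and RV cells with fewer than 3 (<3) or at least 3 (≥3) *KRT81* UMIs, with exact 95% Poisson intervals. S cells with fewer *KRT81* UMIs stand apart at 140.1 and 385 CPM, while both parts of RV lie between 50.9 and 53.0 CPM for *NFE2L2* and between 115 and 122 CPM for *NQO1*.

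*HMOX1* (ENSG00000100292, chr22:35380361-35394214, plus strand) encodes heme oxygenase, which breaks down heme. It had 1.89 CPM (1.56 to 2.28) in S and 3.68 (3.18 to 4.24) in RV, against 13.4 (12.2 to 14.7) in RVC and 13.6 (12.2 to 15.1) in RVT. RVC and RVT lay well above S and RV, and their own intervals overlapped almost fully, with a log2 ratio of 0.02 between them (-0.19 to 0.23). The log2 ratio over S was 0.96 (0.62 to 1.31) in RV, while RVC had 2.82 (2.52 to 3.14) and RVT 2.84 (2.53 to 3.16), but the mean of these pairs stayed below 10 CPM and they were not counted above. After centering on GC content the ratios over S were 2.86 in RVC and 2.82 in RVT.

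At near-equal levels, the UMIs were spread over cells differently. In RVC 442 *HMOX1* UMIs lay in 409 cells, with at most 4 in any cell. In RVT 345 UMIs lay in 215 cells, 15 cells had 5 or more, and these 15 cells held 118 UMIs, 34.2% of the total. The other 8430 RVT cells had 8.96 CPM, below the 13.4 of RVC. No RVC cell had 5 or more although its cells were deeper, 2 RV cells did, with 16 UMIs between them, and no S cell had over 2. The Fano factor of *HMOX1* was 1.62 in RVT, 59th of 6705 genes, against 1.04 in RVC. Without removal of doublets or with all deposited barcodes there were 17 such cells in RVT and 0 in RVC, and with a minimum of 1000 genes per cell 11 and 0.

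The 15 RVT cells were selected on *HMOX1* and are described without a test. Their median depth was 4861 UMIs against 2869.5 in the other 8430 cells. *HSPA1A*, a stress-induced heat shock gene, had a UMI in all 15 of them against 7.83% of the rest, and its level was 43.2-fold higher. *HSPA1B* was 41.3-fold higher, though it is a near-identical copy and reads may be split between them. *SQSTM1*, whose product binds KEAP1, was 6.37-fold higher and *DNAJB1*, a heat shock co-chaperone, 7.18-fold. *SLC7A11* was 2.81-fold higher from 8 UMIs, *FTL* 2.17-fold and *FTH1* 1.81-fold. *OSGIN1*, *MAFG* and *MAFF*, from 1 to 3 UMIs each, had intervals that hold no difference. These genes were picked by name, and ratios over all genes were not computed. Among the 9 genes *GCLC* was 6.36-fold higher from 8 UMIs (2.73 to 12.6), *TXN* 2.27-fold, *NQO1* 1.95-fold and *PRDX1* 1.75-fold. *GCLM* was at 2.198-fold from 6 UMIs (0.80 to 4.80), an interval that holds no difference, *TXNRD1* at 1.12-fold and *NFE2L2* 0.54-fold from 3 UMIs. *SRXN1* had 0 UMIs in the 15 cells. The ratios of this set are on the CPM scale, which takes the total depth of the cells into account, whereas the shares of cells with a UMI do not.

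**Figure D3:**
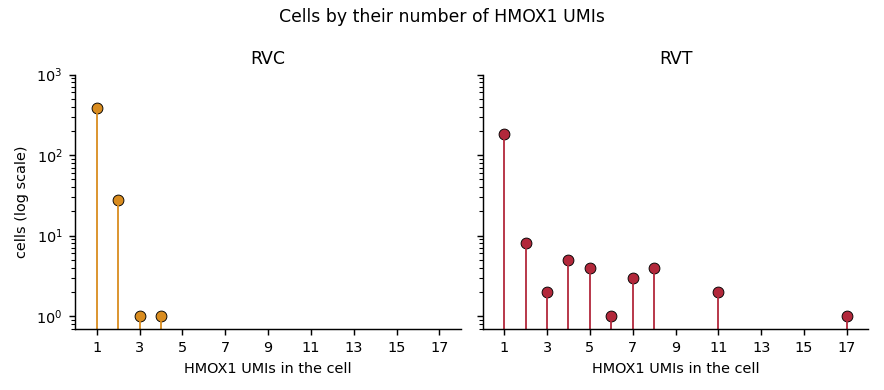
Number of cells (vertical axis, log scale) by the number of *HMOX1* UMIs in the cell (horizontal axis, cells without a UMI left out) in RVC and RVT. RVC cells end at 4 UMIs, whereas 15 RVT cells have 5 to 17.

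*GCLM* was far higher in RVC and RVT than in S and RV, and *GCLC* was highest in RVT. Glutamate-cysteine ligase, which carries out the rate-limiting step, has a modifier subunit from *GCLM* (ENSG00000023909, chr1:93885205-93909456, minus strand) and a catalytic subunit from *GCLC* (ENSG00000001084, chr6:53497341-53616970, minus strand). *GCLM* had 2.76 CPM (2.36 to 3.22) in S and 3.53 (3.04 to 4.08) in RV, against 29.5 (27.7 to 31.4) in RVC and 38.9 (36.5 to 41.4) in RVT. Its log2 ratio over S was 3.42 in RVC (3.18 to 3.67), 75th from the highest of all genes compared, and 3.82 in RVT (3.58 to 4.07), 67th from the highest. As *GCLM* passed the filter only through RVC and RVT, it needed a high ratio to be ranked, and these places are descriptions. The intervals of S and RV overlapped, which does not make them equal, and the log2 ratio of RV over S was 0.35. After centering on GC content the ratios were 2.88 and 2.89, and RVT over RVC, 0.40 as counted (0.27 to 0.53), became -0.09.

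*GCLC* had 3.94 CPM (3.45 to 4.48) in S and 3.09 (2.63 to 3.61) in RV, against 7.07 (6.19 to 8.04) in RVC and 18.1 (16.5 to 19.9) in RVT. RVT stood apart here, and the intervals of S and RV overlapped again, with a log2 ratio of RV over S of -0.35. The log2 ratio was 2.203 in RVT over S (1.97 to 2.44), 0.84 in RVC over S (0.57 to 1.11) and 1.36 in RVT over RVC (1.13 to 1.59). Centered on GC content these ratios were 1.31, 0.23 and 0.95, so the last one no longer reached 2-fold. The catalytic and the modifier gene therefore did not move in step. *GCLM* was 10.7-fold higher in RVC than in S where *GCLC* was 1.79-fold higher.

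The highest ratio of RVT over S among the members compared was that of *TXNRD1* (ENSG00000198431, chr12:104215779-104350305, plus strand), which encodes the cytosolic thioredoxin reductase that regenerates thioredoxin with NADPH. It had 25.9 CPM (24.7 to 27.3) in S and 28.97 (27.5 to 30.5) in RV, against 138 (134 to 142) in RVC and 419 (411 to 427) in RVT, from 1518 to 10633 UMIs. S and RV were nearly equal, and RVT was 3.04-fold above RVC. The log2 ratio was 0.16 in RV over S (0.06 to 0.26), 2.41 in RVC over S (2.32 to 2.49), 4.01 in RVT over S (3.94 to 4.09) and 1.61 in RVT over RVC (1.56 to 1.66). In RVT *TXNRD1* was 57th from the highest of all 6638 genes. Centered values were 1.94, 3.53 and 1.35 in the comparisons with RVC and RVT. *EID3*, which overlaps *TXNRD1* on the same strand, had 0.31 to 2.91 CPM.

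Levels by depth within a library differed between the members. In RVT cells with the fewest UMIs *TXNRD1* had 428 CPM and in those with the most 417, and in S it had 23.7 and 27.5. For *GCLM* the values were 39.2 and 36.8 CPM in RVT, 30.3 and 28.96 in RVC, and 3.001 and 3.11 in S. Some members were higher in the cells with fewer UMIs, in RVT *GCLC* (23.7 against 15.6 CPM), *NQO1* (217 against 146) and *NFE2L2* (100.5 against 69.3), and in RVC *NQO1* (284 against 196), *NFE2L2* (81.8 against 61.4) and *PRDX1* (1448 against 1075). *NQO1* was so in RV (148 against 102.5) and S (286 against 224) as well. The order was the other way for *HMOX1* in RVC (8.86 against 14.5) and *TXN* in S (1023 against 1167). The part of depth in the ratios between libraries was not tested.

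Promoter sequences of RefSeq (GRCh38.p14), which run from 250 bases before to 50 after each start, held 7 of the 9 genes in 9 windows. *HMOX1* and *PRDX1* were not matched. Matches to the core of the antioxidant response element, TGACNNNGC on either strand, are shown because NRF2 binds that element, and they lay in *TXNRD1* and *GCLM*. *SRXN1* had a window without a match, and *HMOX1* had no window. The ratio of RVT over S of *SRXN1* was the highest of the 9 genes, but from 3 UMIs in S, with an interval that holds the ratio of *TXNRD1*. The core occurred in 13.35% of all 35116 windows of this length, and in 3 of the 9 windows here, with 4 matches. The match not printed is TGACGGAGC on the other strand of the upstream *TXNRD1* window, 8 to 0 bases before the start. The AP-1 site TGACTCA, which can lie within the element, was in 4.949% of all windows and in 0 of these 9. Each line gives the strand of the gene, 5′ to 3′, with the core or its reverse complement in capitals. A match is a description of the letters, and an element outside the windows would not be found.
TXNRD1, upstream window, chr12:104215670-104215698, plus strand, core 99 to 91 bases before the start: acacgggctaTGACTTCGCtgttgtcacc
TXNRD1, downstream window, chr12:104286920-104286948, plus strand, core 102 to 94 bases before the start, site TGACAAAGC on the other strand: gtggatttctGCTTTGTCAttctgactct
GCLM, chr1:93909446-93909474, minus strand, core 34 to 26 bases before the start, site TGACTAAGC on the other strand: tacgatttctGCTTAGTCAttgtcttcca

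*TXN* (ENSG00000136810, chr9:110243811-110256640, minus strand) encodes thioredoxin, the small disulfide reductase that TXNRD1 recycles. It had 1130 CPM (1121 to 1139) in S and 1532 (1521 to 1542) in RV, against 2138 (2122 to 2153) in RVC and 1379 (1365 to 1393) in RVT. By CPM the order differed from that of its reductase, with RVC on top and RVT between S and RV. The log2 ratio was 0.44 in RV over S, 0.92 in RVC over S, 0.29 in RVT over S and -0.63 in RVT over RVC (-0.65 to -0.61). The sign in RVT over S depended on the scaling and turned to -0.23 under TMM and to -0.60 after centering on GC content. Centering also took RVC over S to 0.31, below RV over S at 0.39, so that RVC was no longer on top, and RVT over RVC to -1.05.

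*PRDX1* (ENSG00000117450, chr1:45511036-45523047, minus strand) encodes a peroxiredoxin, which reduces peroxides and is itself reduced by thioredoxin. It had 370 CPM (365 to 374.5) in S and 468 (462 to 474) in RV, against 1166 (1154 to 1178) in RVC and 840.4 (829 to 852) in RVT. It was highest in RVC. Its log2 ratio was 0.34 in RV over S, 1.66 in RVC over S, 1.19 in RVT over S and -0.47 in RVT over RVC (-0.50 to -0.45). Centered on GC content, RVC over S was 1.48. In RVT over S it no longer reached 2-fold under TMM (0.67) or after centering on GC content (0.93).

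*SRXN1* (ENSG00000271303, chr20:646615-653370, minus strand) encodes sulfiredoxin, which repairs overoxidized peroxiredoxins, and was barely detected. AL121758.1, which overlaps it on the same strand, had 0 UMIs in every library, and how the counting treated reads shared by both was not tested. It had 3 UMIs in S and 7 in RV, against 17 in RVC and 36 in RVT, or 0.051 CPM (0.011 to 0.15), 0.13 (0.054 to 0.28), 0.52 (0.3004 to 0.83) and 1.42 (0.99 to 1.96). RVT was above the other libraries and RVC above S and RV, which overlapped. The log2 ratio over S was 3.33 (1.54 to 5.75) for RVC and 4.79 (3.13 to 7.13) for RVT, and RVT over RVC was 1.46 (0.59 to 2.38). For RV over S it was 1.38, from 7 and 3 UMIs. The mean of each pair stayed below 10 CPM, so none was counted above. Over the settings tried, with centering on GC content among them, RV over S ran from 1.22 to 1.62. RVC over S ran from 2.955 to 3.55 and RVT over S from 4.27 to 4.92.

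**Figure D4:**
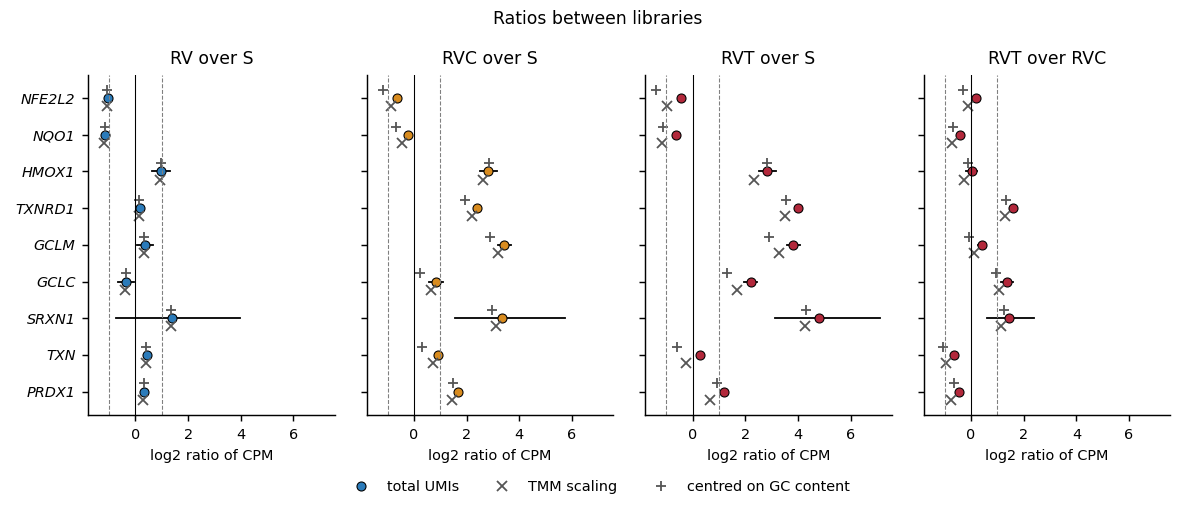
Log2 ratio of CPM (horizontal axis) of each gene in RV, RVC and RVT over S and in RVT over RVC. Circles are ratios by total UMIs with a line for the 95% counting interval, crosses TMM scaling, plus signs ratios centered on genes of similar GC content, and dashed lines 2-fold. The markers coincide in RV over S, and in RVT over S those of *TXN* lie on both sides of 0 (0.29, -0.23 and -0.60).

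The share of cells with a UMI depends on depth, so each cell was also thinned to 1500 UMIs, which left out 397 RVC and 845 RVT cells and no S or RV cell. *TXNRD1* was found in 3.73% of thinned S cells (3.27 to 4.22, Clopper-Pearson 95%), 4.36% of RV, 18.3% of RVC and 42.9% of RVT cells. Unthinned, the shares were 20.4%, 28.8%, 40.4% and 62.7%. *GCLM* was found in 0.33% of thinned S, 0.36% of RV, 4.44% of RVC and 5.92% of RVT cells, so most cells of the libraries with the highest level showed none at this depth. *NQO1* was found in 29.6%, 16.4%, 28.2% and 21.8% of thinned cells and *NFE2L2* in 15.0%, 7.92%, 9.99% and 11.3%, in the same orders as their CPM. *HMOX1* was found in more RVC cells (1.81%, 1.52 to 2.15) than RVT cells (1.42%, 1.17 to 1.71) with overlapping intervals. The line holds no cell type that lacks these genes, so the share due to free RNA was not tested.

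Beside *NQO1* in S and *HMOX1* in RVT, *HMOX1* in RV (1.25) and *NQO1* in RVT (1.13) lay above the 95th percentile of Fano factors in their library. So did *TXN* in every library, *PRDX1* in RVC and RVT, and *TXNRD1* in RVT. The Fano factor of *TXN* was 1.11 in S and 1.35 in RV, against 1.78 in RVC and 1.55 in RVT. For *PRDX1* the values were 1.09, 1.12, 1.59 and 1.85, where the median of all genes was 1.01 in each library. *TXNRD1* reached 1.26 in RVT. *GCLC* and *SRXN1* lay between 0.99 and 1.02 wherever they had thinned UMIs. Genes were not matched for level here. *TXN* had 1.67 to 3.28 thinned UMIs per cell, and *GCLC* and *SRXN1* had at most 0.026.

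Few pairs of the 9 genes had a correlation above 0.1 between cells, and the same share over all pairs of genes was not computed. *HMOX1*, *GCLM*, *GCLC* and *SRXN1* had means of at most 0.062 thinned UMIs per cell, so their pairs could hardly show a correlation. Of 36 pairs, 0 in S and 0 (of 28 with a value) in RV, against 1 in RVC and 2 in RVT had a Pearson correlation above 0.1 in thinned counts, with medians between -0.003 and 0.014. The leading pair was *TXN* with *PRDX1*, at 0.05 in S and 0.10 in RV, against 0.28 in RVC and 0.23 in RVT, and the other was *NQO1* with *PRDX1* in RVT (0.13). In unthinned levels *TXN* and *PRDX1* had 0.14 in S and 0.32 in RV, against 0.21 in RVC and 0.11 in RVT, so the order of the libraries for this pair depended on the scale. Both genes also correlated negatively with the mitochondrial share of the cell in RVC (-0.30 for *TXN*, -0.20 for *PRDX1*), and their mean level was 2607 and 1389 CPM in cells below the median share and 1608 and 914 in those above, whose part in the correlation was not tested. *TXNRD1* and *GCLM* had 0.006 in RVC and 0.027 in RVT. *NFE2L2* and *NQO1* had 0.034 in S, -0.001 in each of RV and RVC, and 0.019 in RVT, and in unthinned levels 0.12 in S. Correlations this small in sparse counts are no finding.

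Among 993 genes with at least 50 CPM in every library, the summed UMIs of the 9 genes were most like *CALM2* (mean r over the 4 libraries 0.17), *HSP90AA1* (0.17), *SKP1* (0.17), *PSMB3* (0.16) and *TUBA1B* (0.15), and *TXN* and *PRDX1* make up most of that sum. *CALM2* was also the most like *TXN* (0.15) and *HSP90AA1* the most like *PRDX1* (0.16), the latter from -0.004 in S to 0.32 in RVC. The most like *NQO1* was *TIMP1* (0.09). *CAV1* was the most like *TXNRD1* (0.04), *MALAT1* like *NFE2L2* (0.05), *FTH1* like *HMOX1* (0.03), *SF3B5* like *GCLM* (0.03) and *ATP5PB* like *GCLC* (0.02), values too low to describe a relation.

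The wider pathway was read from 11 lists of genes grouped by role. Against the backgrounds given above, 2 of 86 listed genes compared in RV over S were at least 2-fold higher and 2 lower, 28 and 26 of 91 in RVC over S, 30 and 28 of 95 in RVT over S, and 17 and 19 of 89 in RVT over RVC. Among all genes the shares higher and lower were 2.09% and 1.28% in RV over S, and 23.1% and 23.4% in RVC over S. They were 30.8% and 23.2% in RVT over S, and 16.7% and 11.6% in RVT over RVC. Differences both ways were thus common among all genes in the comparisons with RVC or RVT. These shares are the background of each list count below. Values of RVC and RVT over S share the same S library. The lists were not centered on GC content, and the part of the GC trend in their values was not tested. In the group of genes richest in GC the median log2 ratio was -1.84 in RVC over S and -2.02 in RVT over S. The counts and medians of the lists are descriptions too, since each comparison tests other genes and some passed the filter only through their higher library.

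Of the regulators of NRF2, 0 of 7 genes compared passed 2-fold in RV over S. At least 2-fold higher were 2 of 8 in RVC over S, against 23.1% of all genes, and 2 of 8 in RVT over S, against 30.8%. None was lower by that much, against 23.4% and 23.2%. *RBX1*, the RING subunit of the ligase that marks NRF2, had 105 CPM in S and 127 in RV, against 609 in RVC and 374 in RVT. *CUL3*, its scaffold, had 7.87, 5.23, 19.0 and 9.49 CPM. *NFE2L1*, a related transcription factor, had 52.0, 27.1, 56.3 and 125 CPM. By CPM it was lowest in RV (log2 -0.94 over S), as was *NFE2L2*, for which this order changed after centering on GC content.

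Among 28 other NRF2 targets, 0 of 15 compared were at least 2-fold higher and 1 lower in RV over S (2.09% and 1.28% of all genes). The counts were 3 and 5 of 15 in RVC over S (23.1% and 23.4%) and 9 and 2 of 18 in RVT over S (30.8% and 23.2%). Medians were 0.04, -0.10 and 0.92, against 0.03, 0.17 and 0.29 for all genes. Of the 9 higher in RVT, 4 were below 10 CPM in S and passed the filter only through RVT, *AKR1C2*, *AKR1C3*, *ABCC2* and *ME1*. RVT was at least 2-fold above RVC in 7 of 18 and below it in 1 (16.7% and 11.6% of all genes). The lower gene in RV was *SLC7A11*, the cystine importer that feeds glutathione synthesis, with 27.3 CPM in S and 9.64 in RV, against 12.5 in RVC and 40.7 in RVT. The ferritin genes parted, *FTL* with 3028, 2954, 25730 and 36080 CPM and *FTH1* with 4438, 6036, 1258 and 4652. The aldo-keto reductase gene *AKR1C2* had 2.27, 2.46, 5.70 and 52.4 CPM, and *AKR1B10* had 0.034 in S from 2 UMIs, 0.50 in RV, 0.24 in RVC and 10.2 in RVT (log2 interval of RVT over S from 6.35 to 11.27). Both reached 10 CPM only in RVT and are named for their ratios of RVT over S. Their log2 ratios of RVT over RVC, 3.20 for *AKR1C2* and 5.39 for *AKR1B10*, are favored by that choice and are descriptions. *AKR1B10* had 8 UMIs in RVC and a mean below 10 CPM, so it was not among the genes compared. *ABCC2*, an efflux pump gene, had 1.02, 2.83, 11.3 and 21.4 CPM. The carbonyl reductase gene *CBR3* went the other way, with 14.3, 11.6, 2.79 and 1.42 CPM, and *TALDO1* of the pentose phosphate pathway had 109.8, 115.1, 102 and 47.9.

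Of the glutathione genes 5 of 18 were higher and 7 lower in RVC over S (23.1% and 23.4% of all genes). In RVT over S 7 of 18 were higher and 9 lower (30.8% and 23.2%), and 0 of 17 passed in RV over S. The microsomal transferase genes *MGST1* and *MGST3* had 142 and 81.5 CPM in S, 248 and 99.4 in RV, 673 and 502 in RVC, and 875 and 525 in RVT. *GLRX*, a glutaredoxin gene, had 32.8, 50.9, 133 and 208 CPM, whereas *GLRX2*, its mitochondrial relative, had 75.1, 73.7, 9.22 and 9.45. *GPX4*, which reduces lipid peroxides, had 21.8 CPM in RVC and 51.6 in RVT where S had 335, and *SLC3A2*, the partner of SLC7A11, 6.49 and 27.5 where S had 151. *CHAC1*, which degrades glutathione, had 26.2, 20.8, 3.34 and 1.93 CPM. The genes named here were taken from both ends of the list.

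In the thioredoxin and peroxiredoxin list 1 of 11 genes was at least 2-fold higher and 1 lower in RV over S (2.09% and 1.28% of all genes). The counts were 3 and 5 in RVC over S (23.1% and 23.4%), and 3 and 6 in RVT over S (30.8% and 23.2%). *TXNIP*, whose product binds and inhibits thioredoxin, had 25.7 CPM in S and 11.8 in RV, against 67.9 in RVC and 591 in RVT, and so was highest in the same library as *TXNRD1*. *TXNRD2*, the mitochondrial reductase, had 24.7, 51.5, 2.18 and 2.09 CPM and so went against *TXNRD1* in RVC and RVT (log2 -3.50 and -3.57 over S). *PRDX3* had 73.6, 85.2, 216 and 184 CPM and *TXNDC17* 294, 318, 792 and 699.7, whereas *PRDX4* had 128, 129, 32.6 and 26.1 and *TXNL1* 106, 136, 26.5 and 41.6.

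Of the 4 superoxide and catalase genes, 0 passed 2-fold in RV over S. In each of RVC and RVT over S 1 was higher (23.1% and 30.8% of all genes). *SOD1* had 253 CPM in S and 292 in RV, against 644 in RVC and 375 in RVT, and *CAT*, the catalase gene, 10.3, 10.5, 11.7 and 47.0. Of the heme and iron genes 3 of 6 were higher in RVC over S (23.1% of all genes) and 4 of 8 in RVT over S (30.8%). None was lower (23.4% and 23.2%), and 0 of 5 passed in RV over S. The transferrin receptor gene *TFRC* had 7.03, 8.34, 55.8 and 47.5 CPM. *ALAS1*, which starts heme synthesis, had 15.2, 27.8, 55.7 and 20.5 CPM, and *FECH*, which completes it, 8.17, 11.3, 5.95 and 24.2. Of the NADPH genes 2 of 6 were lower in each of RVC and RVT over S (23.4% and 23.2% of all genes). In RVT 1 of 6 was higher (30.8%), and 0 of 5 passed in RV. *MTHFD2* had 276, 215, 51.0 and 32.7 CPM, *IDH2* 25.8, 22.9, 4.82 and 4.61, and *NNT* 7.39, 6.28, 13.0 and 21.4.

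The lists of other stress programs were counted in the same way and were not compared with the NRF2 targets. The integrated stress response list holds genes switched on by ATF4, some of them shared with NRF2. It was lower by at least 2-fold in 7 of 7 genes compared in RVC over S (23.4% of all genes). In RVT over S 6 of 7 were lower (23.2%), and 0 of 8 passed in RV over S. Of these lower genes 4 in RVC and 3 in RVT passed the filter only through S. *TRIB3* had 203 CPM in S and 119 in RV, against 10.3 in RVC and 14.3 in RVT, and *PPP1R15A* 82.9, 97.3, 9.37 and 8.50. Heat shock genes were higher in 4 of 6 and lower in 1 of 6 in RVC over S (23.1% and 23.4% of all genes). In RVT over S 3 of 5 were higher and 1 of 5 lower (30.8% and 23.2%), and 0 of 4 passed in RV. *HSPA1A* had 2.22, 4.07, 54.2 and 32.7 CPM and *HSPA1B* 0.99, 1.43, 20.7 and 14.2, while *HSPB1* had 487, 594, 203 and 46.2. *HSPA1A* and *HSPA1B* passed the filter in RVC over S only through RVC, and *HSPA1A* in RVT over S only through RVT.

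Only 2 metallothionein genes reached the filter. *MT2A* had 2811 CPM in S and 5865 in RV, against 1306 in RVC and 128 in RVT, and *MT1X* 96.3, 143.5, 507 and 162. Of 10 genes of the G2/M phase 0 passed 2-fold in RV over S, and 6 were higher in RVC over S (23.1% of all genes). Lower were 3 in RVT over S (23.2%) and 9 in RVT over RVC (11.6%). *CCNB1* had 33.1, 48.1, 157 and 35.2 CPM and *CENPF* 89.95, 96.5, 333 and 78.6, whereas *CDC20* had 69.4, 116, 34.8 and 4.17 and *PLK1* 30.4, 39.8, 16.4 and 3.62. These 4 genes lie at both ends of the list, and the part of the G2/M genes in the ratios of the 9 genes was not tested.

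**Figure D5:**
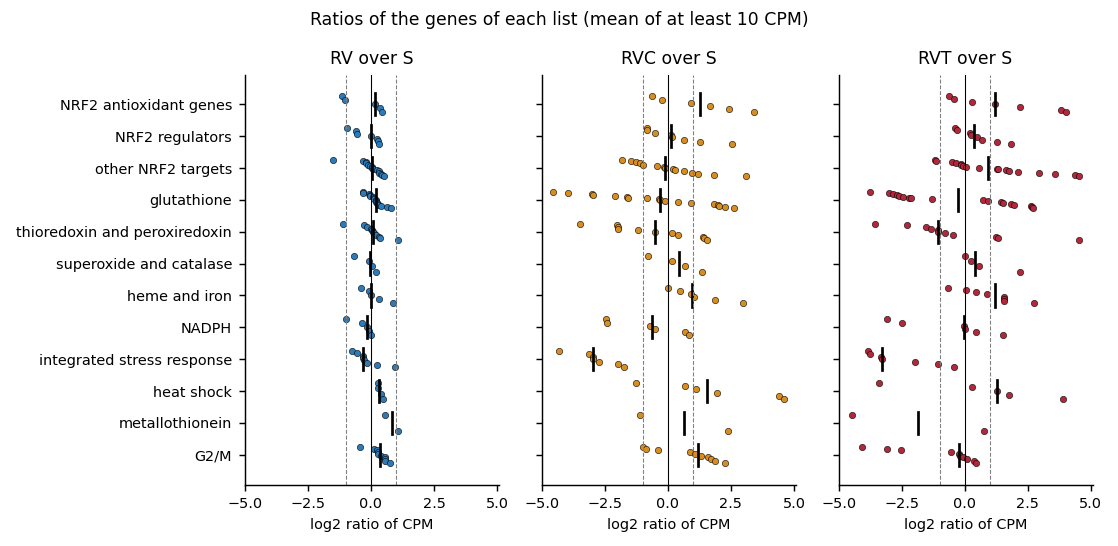
Log2 ratio of CPM (horizontal axis) of RV, RVC and RVT over S for the genes of each list (rows), 1 point per gene with a mean of at least 10 CPM, black bars for the medians of these genes and dashed lines for 2-fold. Points stay mostly within 2-fold in RV over S, spread to both sides in RVC and RVT over S, and all compared genes of the integrated stress response lie below 0 there.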

How the data were processed

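Per the labels, the authors prepared 1 droplet library per condition (10x Chromium, v2 chemistry). Their processing notes name bcl2fastq 2.20.0.422, Cell Ranger and GRCh38. The deposited values are raw UMI counts, 1 per gene and barcode, without normalization. The Cell Ranger version and the annotation releases are not given in the sources used here. S and RV list 703 genes that RVC and RVT do not, which list 547 others.

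Barcodes with at least 500 genes and at most 20% mitochondrial UMIs were kept, and those with the highest scrublet scores (scanpy 1.11.5) were removed at 0.8% per 1000 barcodes, since the tool's own threshold marked 5, 1, 1 and 0 and so did not work. The study describes removing dead cells and doublets for its own analysis, not whether this preceded deposit. The cell numbers it states equal the deposited barcodes for RVC (9266) and RVT (10427), and are lower than those deposited for S (6695) and RV (4328). UMIs were summed per gene and library, 58611860 in S and 52389992 in RV, against 32968217 in RVC and 25407545 in RVT. The level that 3 UMIs give is 0.0512 CPM in S and 0.0573 in RV, against 0.0910 in RVC and 0.118 in RVT, and fewer UMIs were set to 3 in ratios. Intervals at 95% are Poisson for CPM, Clopper-Pearson for shares and conditional binomial for ratios. Genes were placed with GENCODE 29. Computations used python 3.11.15, numpy 2.4.6, scipy 1.17.1, pandas 2.3.3 and matplotlib 3.10.9, and TMM factors edgeR 4.0.16 in R 4.3.3. The code was tested on simulated sums of the genes compared, in which 200 were changed 4-fold, and in RV over S 100% of them were recovered among 5796 genes.

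All 9 genes are named. Of each wider list, the 2 genes with the highest and the 2 with the lowest ratio over S in each of RV, RVC and RVT are named, if they reached 10 CPM in one of the libraries compared and differed by 2-fold. The closest genes by correlation are named as well, the highest 5 for the sum and the highest for each member. The members and lists were chosen with earlier results of these data known. Of 153 listed genes 152 were found in all tables, and *GPX1* was not analysed here. Alternatives were other cell filters, scalings, GC centering, thresholds, thinning depths and correlations. The splits by *KRT81* and the cells with 5 or more *HMOX1* UMIs were chosen after the values were seen. *LINC01419*, like *KRT81*, had divided S in earlier results of these data.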

Additional observations from a re-analysis of the deposited data

How the results depend on the processing

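The 9 genes kept the direction of every ratio of at least 2-fold under all settings tried. The count of the 9 genes at least 2-fold higher in RVT over S was 2 under TMM scaling and 2 under median-of-ratios size factors, where 1 was at least 2-fold lower in each, and centering on GC content gave 2 lower. Of all genes 16.9%, 18.4% and 21.6% were higher there and 33.6%, 32.6% and 24.4% lower. Of the 4, *GCLC* stayed over 2-fold (log2 1.69 and 1.75) but its mean fell under 10 CPM, and *PRDX1* was at 0.67 under TMM. Centering also gave 1 lower in RVC over S and 1 higher and 1 lower in RVT over RVC, where all genes gave 23.7%, 10.6% and 14.9%. A threshold of 1.5-fold gave 1 lower in each of RVC over S, RVT over S and RVT over RVC (31.5%, 30.0% and 20.4% of all genes), and a threshold of 3-fold gave 0 lower in RV over S and 1 higher in RVT over RVC (0.50% and 5.47% of all genes). Changes of sign among ratios under 2-fold were those of *TXN* in RVT over S and of *NFE2L2*, *HMOX1* and *GCLM* in RVT over RVC, whose lowest values were -0.60, -0.30, -0.28 and -0.09. TMM moved the median log2 ratio of all genes in RVT over S from 0.29 to -0.30. Pairs with r above 0.1 in unthinned levels were 4 in S and 2 in RV, and in RV 1 by Spearman correlation and 1 with a minimum of 1000 genes per cell. In RVT the 2 pairs became 3 with another random seed and with that minimum. With at least 50 CPM the wider lists had 1 gene higher and 0 lower in RV over S, 15 and 15 in RVC over S, 11 and 17 in RVT over S, and 4 higher in RVT over RVC. The share over all genes was not computed at that minimum, so these list counts cannot be set against a background. The cause of these changes was not tested, other than that a higher CPM minimum compares fewer genes.

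No paired analysis was possible because each condition has 1 library. Few UMIs limit *SRXN1*, at 3 to 36 per library.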
